A study of Mus musculus with 42 samples.

Results

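The genes described here encode the machinery that docks, fuses and retrieves synaptic vesicles: 40 genes, chosen by name, of the 18193 genes with a probe set of their own on the arrays. A vesicle is tethered by synapsins, docked by Rab3 GTPases and active zone scaffolds, and primed by Munc13 proteins. It fuses when a calcium sensor of the synaptotagmin family acts on the SNARE complex, and its membrane is then retrieved by clathrin and dynamin. This set of genes is known to rise while neurons mature and form synapses, which in the mouse forebrain happens mostly after birth. For each gene the probe set with the highest mean over all 42 arrays was used, and all 40 genes were matched to RefSeq by Entrez ID.

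Total RNA had been taken from *Fmr1*KO mice, which lack the fragile X gene product FMRP throughout the body, and from WT mice, both on the C57BL/6 background and both untreated. In each genotype 4 systems were profiled. The primary hippocampus and primary cortex were tissue of embryos at 17 to 18 days post conception, pooled over littermates. Hippocampal culture and cortical culture were neuronal cultures from such embryos that had matured for 14 days in vitro and, by the study's methods, held glia as well. There were 6 arrays per genotype in primary hippocampus and 5 per genotype in the other systems, and samples that carry the same mouse ID were taken to be 1 litter, 10 of which are present in every system. A pooled litter is the replicate, and nothing in the labels names a batch. In such bulk RNA, fewer cells of a type and less RNA per cell cannot be told apart.

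Values are log2 signal, so that a difference of 1 is a 2-fold change. A signal was called above background when it exceeded 5.16, the 95th percentile of 123 probe sets for olfactory, vomeronasal and keratin-associated genes. By that measure 37 of the 40 genes were above background in all 4 systems, *Vamp1* was so in the cultures alone, and *Syt2* and *Sv2c* were above it in none. *Fmr1* itself was lower in the KO arrays of every system, with differences of -0.99 to -0.90, and no KO array reached a WT array of its system. The lowest correlation of an array with the median of its own group, over all probe sets, was 0.985. Differences are given with the SE of a limma fit over all arrays, and each adjusted p is corrected for all probe sets tested, after Benjamini and Hochberg.

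Of the 40 genes, 30 have a start site in the RefSeq promoter table (GRCm38.p6), in 38 entries. The 250 bases before each start were searched on both strands for short motifs, and the windows of *Syn1*, *Syn2* and *Sv2b* are shown because *Syn1* and *Syn2* are paralogs that rose together in culture and *Sv2b* had the largest rise of all 40. In *Syn1* (chrX:20920919-20921168, minus strand) the capitals mark TCAGCACC, the left arm of the RE1 element bound by the neuronal repressor REST, and TGACGTCA, the cyclic AMP response element (CRE). In *Syn2* (chr6:115134652-115134901, plus strand) they mark the EGR motif GCGNGGGCG and the GC box GGGCGG, the first of which overlaps the EGR match. In *Sv2b* (chr7:75309263-75309512, minus strand, the first of its starts) they mark the TATA box TATAAA, found on the opposite strand.
Syn1: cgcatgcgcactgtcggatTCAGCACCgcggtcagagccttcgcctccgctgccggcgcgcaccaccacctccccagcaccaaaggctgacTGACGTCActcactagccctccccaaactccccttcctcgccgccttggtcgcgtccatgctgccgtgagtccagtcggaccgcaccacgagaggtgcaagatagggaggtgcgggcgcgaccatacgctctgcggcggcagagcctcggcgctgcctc
Syn2: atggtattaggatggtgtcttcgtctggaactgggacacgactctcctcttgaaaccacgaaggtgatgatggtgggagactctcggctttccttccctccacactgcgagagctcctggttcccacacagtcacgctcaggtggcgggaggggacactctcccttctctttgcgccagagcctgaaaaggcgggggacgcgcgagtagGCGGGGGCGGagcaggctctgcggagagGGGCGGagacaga
Sv2b: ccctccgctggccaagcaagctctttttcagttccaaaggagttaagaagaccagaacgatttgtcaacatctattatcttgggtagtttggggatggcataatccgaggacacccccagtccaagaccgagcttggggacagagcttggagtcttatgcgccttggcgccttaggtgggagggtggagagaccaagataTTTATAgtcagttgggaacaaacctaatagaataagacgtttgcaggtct

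The left RE1 arm was in 1 of the 30 genes' windows and in 1.32% of all 32851 promoter entries. The right arm GGACAGCG was in none of the 30 genes' windows, against 0.992% of all entries. The CRE was in *Syn1* and *Sh3gl2*, against 1.55% of all entries. The EGR motif was in 6 of the 30 genes (*Nsf*, *Sh3gl2*, *Syn2*, *Syngr1*, *Synpr* and *Unc13a*), against 4.7%. The GC box was in 22 of them against 32.7%, the E-box CACGTG in 3 (*Nsf*, *Sv2b* and *Unc13b*) against 6.02%, and the TATA box in *Rab3b* and *Sv2b* against 12.4%. The GC box can overlap the EGR motif. These are matches of letters. Genes with several starts were counted once, with a match in any start, while the percentages are of single entries, so the 2 are unlike. Of the 38 entries of these genes, 23 held the GC box, 6 the EGR motif and 3 the E-box. The TATA box was in 3 of the 38, the CRE in 2 and the left RE1 arm in 1.

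The first comparison asks how neurons in culture differ from the embryonic tissue they came from. In hippocampal culture 27 of the 40 genes were at least 2-fold higher than in primary hippocampus at an adjusted p under 0.05, where 8.4% of all genes were, and 1 gene, *Syn3*, was at least 2-fold lower, where 11.0% of all genes were. In cortical culture 26 genes were at least 2-fold higher than in primary cortex (8.24% of all genes) and none was 2-fold lower (9.87% of all genes). The median difference over the 40 genes was 1.76 in hippocampus and 1.23 in cortex, against 0.02 and 0.01 over all genes. Without the fold threshold, 35 genes were higher in hippocampal culture (35.9% of all genes) and 3 lower (36.2%), and 35 were higher in cortical culture (35.3%) and 1 lower (35.9%). The lower ones beside *Syn3* were *Sv2c* (both regions) and *Syt2* (hippocampus), which were below background in every array, so that their direction is not a measured difference. In all, 23 genes rose at least 2-fold in both regions. The share of all genes that did so in both was not counted, and it cannot exceed the 8.24% of cortex. *Syt5*, *Vamp1*, *Cplx2* and *Snap91* passed in hippocampus alone, and *Synpr*, *Syt11* and *Rab3b* in cortex alone.

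**Figure D1:**
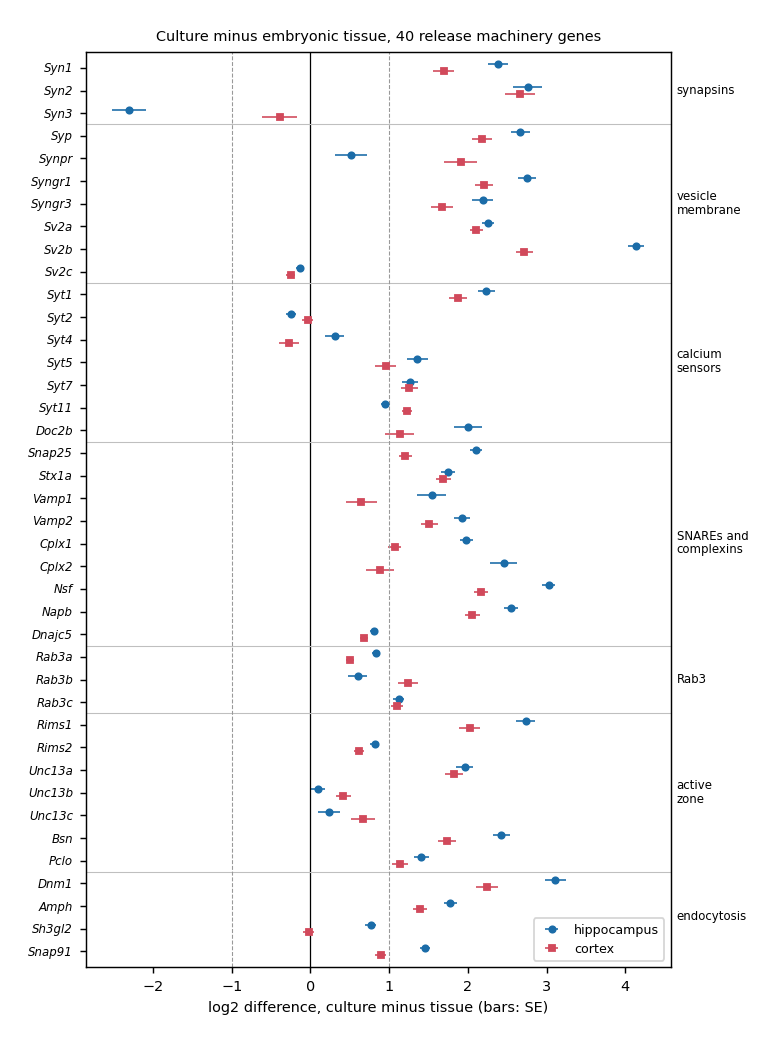
Log2 difference of culture minus embryonic tissue for each of the 40 genes (horizontal axis), grouped by role. Circles stand for hippocampus and squares for cortex, bars are the SE of the limma fit, and dashed lines mark 2-fold. Most genes sit to the right of the 2-fold line in both regions, *Sv2b* reaches 4.14 in hippocampus, and *Syn3* sits at -2.30 in hippocampus.

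The mean over the 40 probe sets of an array lay between 9.50 and 10.06 in hippocampal culture and between 8.12 and 8.50 in primary hippocampus. It lay between 9.49 and 9.94 in cortical culture and between 8.28 and 8.59 in primary cortex. Culture and tissue thus did not overlap in either region. Within litters, 32 genes were higher in the culture than in the tissue of the same litter in all 10 litters in hippocampus, and 31 were in cortex. The same was not counted over all genes, so these litter counts have no share to be set against.

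Other cell types moved with this comparison. All 6 neural progenitor markers were at least 2-fold lower in hippocampal culture, as were 5 of 6 in cortical culture, and *Eomes* was not above background in the cultures. Their summed signal (log2) ran from 9.65 to 11.21 in hippocampal culture against 12.51 to 12.99 in primary hippocampus, and from 10.13 to 11.65 in cortical culture against 11.75 to 12.60 in primary cortex. Of 5 microglia markers, 5 were called at least 2-fold lower in hippocampal and 3 in cortical culture. *Aif1* was below background in all 4 systems, and 4 of the 5 were below it in both cultures. Of 7 astrocyte markers, 5 were at least 2-fold higher in hippocampal and 6 in cortical culture. Of 7 pan-neuronal markers, 2 were at least 2-fold higher and 1 lower in hippocampal culture, and 1 was higher and 3 lower in cortical culture. Their summed signal ran from 13.56 to 14.21 in hippocampal culture against 13.34 to 13.54 in primary hippocampus, and from 13.51 to 13.98 in cortical culture against 13.80 to 14.01 in primary cortex. Of 6 GABAergic markers, 4 were at least 2-fold higher in each culture, with 1 lower in hippocampus and 2 in cortex. Their summed signal ran from 11.06 to 12.23 in hippocampal culture against 9.24 to 11.28 in primary hippocampus, and from 12.28 to 12.59 in cortical culture against 10.52 to 11.36 in primary cortex. The summed oligodendrocyte lineage signal was higher in both cultures too, at 10.6 to 11.3 against 8.89 to 9.94 in hippocampus and at 11.7 to 12.7 against 9.04 to 10.02 in cortex. In hippocampus only *Olig1* of this list had a higher mean in culture, at 10.95 against 7.81 in tissue. *Pdgfra* (5.52 against 7.81), *Mbp* (5.80 against 6.96), *Cspg4* and *Olig2* had lower means in hippocampal culture, where *Olig2* was below background. In cortex only *Mbp* had a lower mean in culture. The endothelial sum was lower, at 7.64 to 9.39 against 9.50 to 10.03 in hippocampus and at 7.25 to 9.08 against 9.29 to 9.51 in cortex. Within this list *Cldn5* and *Flt1* were above background in both tissues and below it in both cultures. *Kdr* had similar means in culture and tissue, at 8.53 against 8.59 in hippocampus and 7.72 against 7.77 in cortex. *Pecam1* was below background in all 4 systems. The part of these cell types in the vesicle gene differences was not tested, and days in vitro and the dissociation of the tissue cannot be told apart.

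The synapsins coat the vesicle and hold the reserve pool, and the 3 genes did not move as one. *Syn1* ran from 8.26 to 9.44 (median 8.996) in hippocampal culture against 5.81 to 7.001 (median 6.70) in primary hippocampus. In cortex it ran from 8.17 to 9.02 (median 8.62) in culture against 6.67 to 7.15 (median 7.04) in tissue. The groups did not overlap in either region, with differences of 2.38 ± 0.13 and 1.69 ± 0.13 (SE, limma adjusted p = 2.0e-19 and 2.3e-14). *Syn2* ran from 11.44 to 12.40 (median 12.11) in hippocampal culture against 8.85 to 9.90 (median 9.20) in primary hippocampus. Its cortical values were 9.99 to 11.97 (median 10.81) against 7.90 to 8.78 (median 8.32), and its differences were 2.76 ± 0.18 and 2.66 ± 0.19.

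*Syn3* went the other way in hippocampus. It ran from 4.20 to 6.75 (median 5.36) in hippocampal culture against 7.19 to 8.17 (median 7.73) in primary hippocampus, a difference of -2.30 ± 0.21 (adjusted p = 2.4e-12) that was seen in all 10 litters. Only 5 of the 10 hippocampal cultures were above background. In cortical culture it ran from 7.59 to 9.13 (median 8.57) against 8.73 to 9.28 (median 8.89) in primary cortex, a difference of -0.39 ± 0.22 that did not pass the test (adjusted p = 0.12). The probe set carries the suffix for probes shared by several transcripts. A second *Syn3* probe set fell by 1.19 in hippocampus (adjusted p = 5.1e-10) and differed by -0.31 in cortex, and its remaining one was below background in every system. The level of *Syn3* given here is that of the first.

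**Figure D2:**
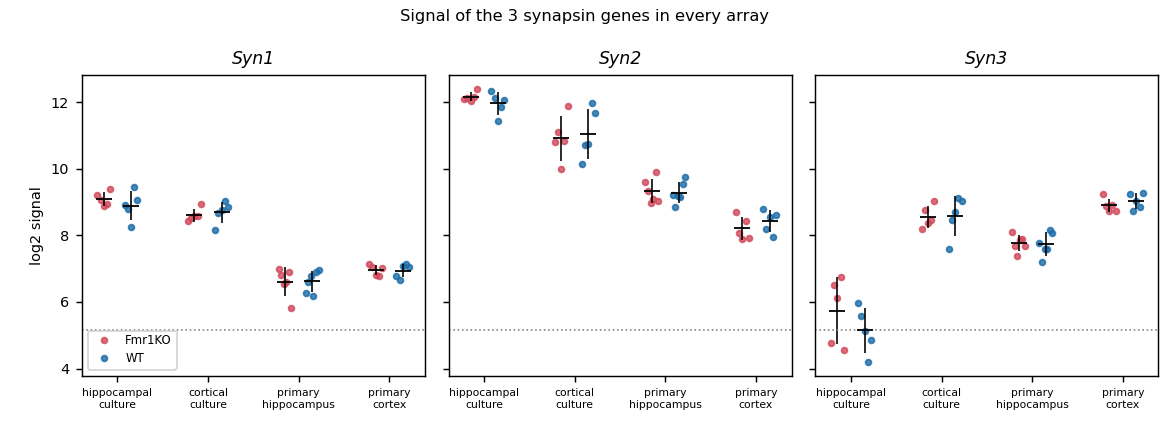
Log2 signal (vertical axis) of *Syn1*, *Syn2* and *Syn3* in every array of the 4 systems. Each point is 1 array, red for *Fmr1*KO and blue for WT, with the mean and SD of each group in black and the background level of 5.16 dotted. *Syn1* and *Syn2* are higher in culture, and *Syn3* is lowest in hippocampal culture.

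Of the 7 vesicle membrane genes, 5 were at least 2-fold higher in hippocampal and 6 in cortical culture. *Sv2b*, one of the SV2 transporter-like glycoproteins, ran from 11.19 to 11.81 (median 11.46) in hippocampal culture against 7.26 to 7.46 (median 7.31) in primary hippocampus. It ran from 9.77 to 10.82 (median 10.55) in cortical culture against 7.29 to 8.18 (median 7.80) in primary cortex. Its differences of 4.14 ± 0.10 and 2.71 ± 0.11 (adjusted p = 3.1e-29 and 5.0e-23) were the largest in each region. *Sv2a*, the binding site of the antiepileptic levetiracetam, rose by 2.26 and 2.11. *Sv2c*, the paralog of the basal ganglia and brainstem, stayed between 3.23 and 3.79 in all arrays, below background, so that no fold is given.

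The tetraspan proteins of the vesicle rose with it. *Syngr1*, synaptogyrin 1, ran from 10.29 to 11.31 (median 10.67) in hippocampal culture against 7.66 to 8.39 (median 7.91) in primary hippocampus, and from 9.64 to 10.84 (median 10.28) against 7.80 to 8.27 (median 8.08) in cortex. Its differences were 2.75 ± 0.11 and 2.20 ± 0.12. A second, dimmer *Syngr1* probe set above background gave 0.51 and 0.46. *Syngr3* rose by 2.19 and 1.67, and *Syp*, synaptophysin, by 2.66 and 2.18. *Synpr*, synaptoporin, the close paralog of *Syp*, rose by 0.51 ± 0.20 in hippocampus (adjusted p = 0.025) and by 1.91 ± 0.21 in cortex (adjusted p = 3.2e-10).

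Among the 7 calcium sensors, 4 were at least 2-fold higher in each of the regions. *Syt1*, the fast sensor of forebrain release, rose by 2.23 ± 0.11 in hippocampus and 1.88 ± 0.11 in cortex. *Syt7*, the slow sensor of asynchronous release, rose by 1.26 in both, although 1 of its other probe sets above background fell by 0.37 in cortex (adjusted p = 0.0037) and gave 0.28 in hippocampus. *Doc2b*, a high-affinity sensor of spontaneous release, rose by 2.00 and 1.13, with 10 of 12 primary hippocampus arrays above background. *Syt5* rose by 1.36 and 0.95, and *Syt11*, which does not bind calcium, by 0.95 and 1.23. *Syt4*, the close paralog of *Syt11*, ran from 10.95 to 11.67 in hippocampal culture against 10.43 to 11.55 in primary hippocampus, and from 10.74 to 11.72 in cortical culture against 11.11 to 11.92 in primary cortex. Those ranges overlapped, with a difference of 0.31 ± 0.12 in hippocampus (adjusted p = 0.023) and -0.27 ± 0.12 in cortex (adjusted p = 0.052). *Syt2*, the fast sensor of the hindbrain, was between 4.21 and 4.91 in all arrays and thus below background.

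All 9 SNARE genes, complexins and recycling factors were higher in culture in both regions, 8 of them at least 2-fold in hippocampus and 6 in cortex. *Nsf*, the ATPase that takes used SNARE complexes apart, ran from 11.86 to 12.55 (median 12.18) in hippocampal culture against 8.87 to 9.36 (median 9.15) in primary hippocampus. Its cortical values were 11.03 to 11.76 (median 11.37) against 9.04 to 9.44 (median 9.23), and its differences were 3.02 ± 0.08 and 2.17 ± 0.08. *Napb*, the adaptor of *Nsf*, rose by 2.54 and 2.06. Of the SNAREs that pull the membranes together, *Snap25* rose by 2.10 and 1.20, *Stx1a* by 1.75 and 1.69, and *Vamp2* by 1.92 and 1.51. *Vamp1* was below background in all tissue arrays and above it in 10 of 10 hippocampal and 5 of 10 cortical cultures. It was at least 2.34-fold higher in hippocampal culture and at least 1.08-fold higher in cortical culture than a tissue set to the background level. The complexins, which clamp and then promote fusion, rose by 1.98 and 1.07 (*Cplx1*) and by 2.46 and 0.88 (*Cplx2*). *Dnajc5*, the vesicle chaperone, rose by 0.80 and 0.68.

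The 3 measured Rab3 genes, GTPases that dock the vesicle, rose by 0.83 and 0.50 (*Rab3a*), 0.60 and 1.24 (*Rab3b*) and 1.12 and 1.10 (*Rab3c*). The *Rab3a* probe set has a suffix for probes that may match other sequences, and the gene's other probe set gave 1.41 and 0.68. In the active zone, 4 of 7 genes were at least 2-fold higher in each region. *Rims1*, the scaffold that ties vesicles to calcium channels, rose by 2.73 and 2.02, and *Rims2* by 0.82 and 0.62. The giant scaffolds *Bsn* and *Pclo* rose by 2.42 and 1.74 and by 1.41 and 1.13. Other *Pclo* probe sets gave 2.34 to 3.03 in hippocampus, and a second *Bsn* probe set above background gave 0.17 in hippocampus and -0.15 in cortex.

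The Munc13 priming factors differed from each other. *Unc13a*, the main isoform of excitatory synapses, ran from 8.13 to 9.65 in hippocampal culture against 6.53 to 7.16 in primary hippocampus, with differences of 1.96 ± 0.11 there and 1.83 ± 0.12 in cortex. *Unc13b* ran from 8.72 to 9.53 in hippocampal culture against 8.90 to 9.24 in tissue, which overlapped, with 0.09 ± 0.09 in hippocampus (adjusted p = 0.39) and 0.42 ± 0.10 in cortex (adjusted p = 0.00023). *Unc13c*, known best from the cerebellum, gave 0.24 ± 0.14 in hippocampus (adjusted p = 0.14) and 0.67 ± 0.15 in cortex (adjusted p = 0.00014). Its primary hippocampus arrays ran from 4.77 to 5.82, on both sides of the background level.

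Of the 4 endocytosis genes, *Dnm1*, the GTPase that pinches off the retrieved vesicle, ran from 9.89 to 11.12 (median 10.29) in hippocampal culture against 6.75 to 7.87 (median 7.31) in primary hippocampus. In cortex it ran from 9.76 to 10.80 (median 10.31) against 7.80 to 8.32 (median 8.10). Its differences were 3.11 ± 0.14 and 2.24 ± 0.14. *Amph*, which recruits dynamin, rose by 1.78 and 1.39, and *Snap91*, the clathrin adaptor AP180, by 1.45 and 0.89. *Sh3gl2*, endophilin A1, rose by 0.76 ± 0.07 in hippocampus and differed by -0.02 ± 0.07 in cortex, where culture was higher in 5 of 10 litters.

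Over the 26 genes with further probe sets above background, 50 such probe sets were read. All 50 had the sign of the chosen one in hippocampus, and 48 did in cortex, the exceptions being those of *Syt7* and *Bsn* given above. For hippocampus minus cortex, 47 of the 50 had the sign of the chosen one in tissue and 47 in culture.

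The rest of the vesicle cycle was read from 6 lists of 123 other genes, of which 115 had a probe set of their own. In hippocampus 75 of them were higher and 17 lower in culture, where 35.9% and 36.2% of all genes were, and 41 and 3 were at least 2-fold so (8.4% and 11.0% of all genes). In cortex 77 were higher and 22 lower (35.3% and 35.9% of all genes), and 30 and 5 at least 2-fold so (8.24% and 9.87%). Of 16 subunits of the proton pump that acidifies vesicles, 14 were higher in hippocampal and 12 in cortical culture, led by *Atp6v1g2* (3.12 and 2.41) and *Atp6v0a1* (2.38 and 2.18). The ubiquitous subunit *Atp6v1g1* was lower, at -1.03 in hippocampus. Of 33 other endocytosis genes, 24 and 23 were higher, led by *Pacsin1* (2.97 and 2.38) and *Cltb* (1.82 and 1.29), and 2 and 5 were lower, *Fcho2* furthest (-0.89 and -0.66). Of 23 active zone and docking genes, 14 and 15 were higher. *Lin7a* (3.81) and *Rimbp2* (2.77) led in hippocampus, *Rab27b* (2.29) and *Apba1* (1.95) in cortex. Of the 5 and 6 that were lower, *Mical1* was at -3.18 and -2.89 and *Lin7c* at -0.68 and -1.02. Of 16 SNARE proteins and regulators, 8 and 10 were higher and 3 and 4 lower. *Snph*, syntaphilin, rose by 3.78 and 3.18, *Snap23*, the widely expressed relative of *Snap25*, fell by 1.16 in hippocampus, and *Snap29* fell by 1.02 in cortex. Of 16 other synaptotagmins and sensors, 10 were higher in each region, led by *Cadps2* (2.43 and 2.21) and *Syt13* (2.24 and 1.99), and *Syt14* was lower (-0.74 and -1.12). Of 11 other vesicle membrane genes, 5 and 7 were higher, led by *Scamp5* (2.02 and 1.76).

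The second comparison sets hippocampus against cortex, in tissue and in culture. In tissue 5 of the 40 genes were higher in hippocampus at an adjusted p under 0.05 (19.7% of all genes) and 19 lower (16.7% of all genes), with a median of -0.24 against -0.01 over all genes. The 5 include *Syt2* and the 19 include *Sv2c*, both below background in every array and so without a measured direction. In culture 16 were higher in hippocampus (14.7% of all genes) and 4 lower (13.5%), with a median of 0.11 against -0.01. Without the *Fmr1*KO cortical culture of mouse ID 2037, or without mouse ID 3569 in every system, 7 were lower. *Sv2b*, *Snap25*, *Cplx1*, *Rab3a* and *Snap91* were lower in primary hippocampus than in primary cortex and higher in hippocampal than in cortical culture. The other *Snap91* probe set did not reverse, with a mean of 6.99 in hippocampal and 7.13 in cortical culture. *Syn3*, *Rab3c* and *Unc13c* were lower in hippocampus in both settings, and *Syn2* and *Synpr* were higher in both. The shares of all genes with these patterns were not counted.

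In tissue 6 of 7 pan-neuronal markers moved with this result, being lower in primary hippocampus, while *Rbfox3* had a higher mean there (10.47 against 10.03). Also lower were 5 of 6 GABAergic markers, while 4 of 6 progenitor and 4 of 5 microglia markers were higher. Of 7 astrocyte markers 4 were higher and 1, *Aldh1l1*, lower (mean 6.58 against 7.60). The choroid plexus marker *Ttr* (12.08 against 6.15) and the meningeal marker *Dcn* (8.67 against 5.51) were higher in primary hippocampus. The summed choroid plexus signal ran from 10.52 to 13.76 there. In primary cortex it had a median of 6.54 but reached 12.04 in a WT array. Between the cultures *Ttr* differed as well, at a mean of 10.13 in hippocampal and 4.19, below background, in cortical culture. In culture 2 of 7 pan-neuronal markers were higher and 1 lower in hippocampus. All 6 markers of GABAergic neurons, all 5 of the oligodendrocyte lineage and 4 of 6 progenitor markers were lower in hippocampal than in cortical culture. Astrocyte markers went both ways, with *Gfap* at a mean of 9.10 in hippocampal against 6.24 in cortical culture and *Aldh1l1* at 7.61 against 9.04. The part of these cell types in the regional differences was not tested.

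*Synpr* had the largest difference in tissue. It ran from 9.73 to 10.66 (median 10.18) in primary hippocampus against 6.54 to 8.20 (median 7.43) in primary cortex, without overlap, a difference of 2.70 ± 0.20 (adjusted p = 9.7e-14). In culture it ran from 10.18 to 11.17 (median 10.71) in hippocampus against 8.02 to 10.39 (median 9.47) in cortex, which overlapped, a difference of 1.30 ± 0.21 (adjusted p = 8.6e-06). Synaptoporin is known as a protein of hippocampal mossy fiber terminals. *Syn2* was higher in hippocampus by 0.99 ± 0.18 in tissue and 1.08 ± 0.19 in culture, and *Syt11* by 0.37 ± 0.06 in tissue.

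*Syn3* was the gene furthest below in hippocampus, at -1.21 ± 0.21 in tissue (adjusted p = 1.7e-05) and -3.12 ± 0.22 in culture (adjusted p = 5.1e-14). The highest hippocampal culture, at 6.75, was below the lowest cortical culture, at 7.59. Of the 10 hippocampal cultures, 5 were above background. In tissue the next were *Dnm1*, at -0.79 ± 0.14, and *Syt5*, which ran from 5.57 to 6.32 in primary hippocampus against 6.25 to 6.91 in primary cortex with a difference of -0.72 ± 0.13.

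In culture *Cplx2* and *Vamp1* followed *Synpr* among the genes higher in hippocampus. *Cplx2* ran from 11.01 to 11.92 (median 11.77) in hippocampal culture against 9.32 to 11.35 (median 10.49) in cortical culture, and was 1.22 ± 0.18 higher (adjusted p = 1.0e-06). The cortical cultures had the wider range, and the highest of them overlapped the hippocampal ones. *Vamp1* ran from 5.21 to 8.15 (median 6.20) against 4.79 to 5.84 (median 5.17), with 1.12 ± 0.19 (adjusted p = 1.8e-05). *Rab3b* was lower in hippocampal culture, at 6.74 to 8.24 (median 7.37) against 7.94 to 8.85 (median 8.23), a difference of -0.93 ± 0.13 (adjusted p = 5.6e-07). *Unc13c* was lower there too, at 5.11 to 5.88 (median 5.48) against 5.64 to 6.94 (median 6.41), a difference of -0.92 ± 0.15 (adjusted p = 6.9e-06).

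**Figure D3:**
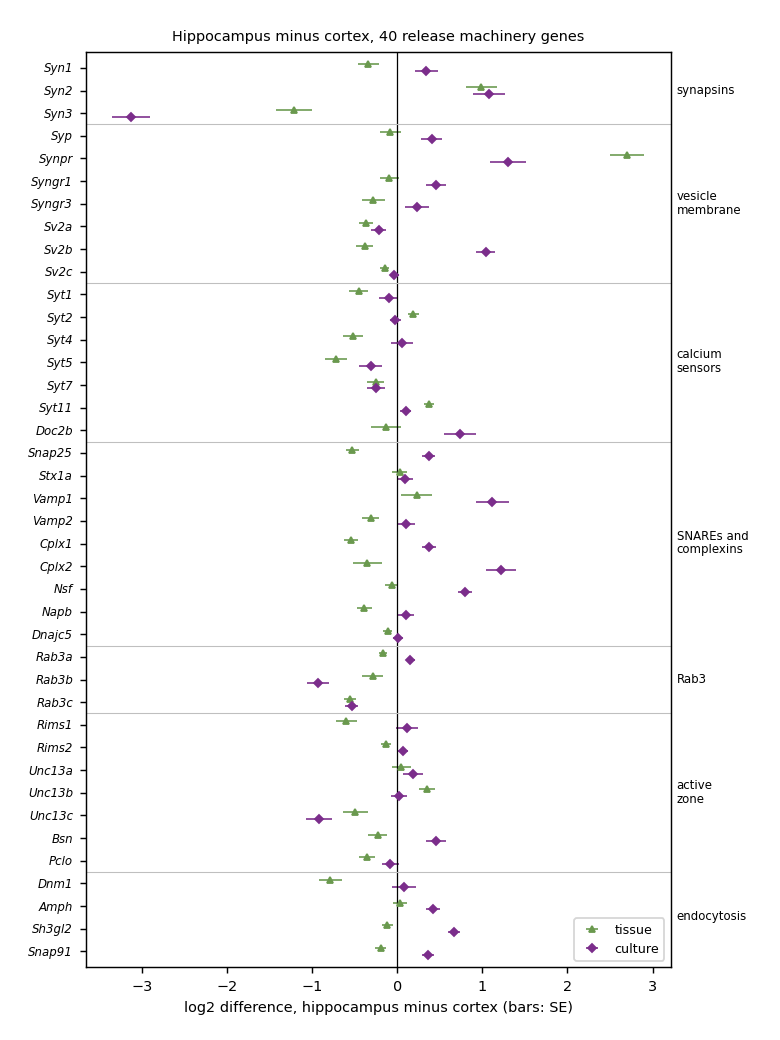
Log2 difference of hippocampus minus cortex (horizontal axis) for each of the 40 genes, grouped by role. Triangles stand for tissue and diamonds for culture, and bars are the SE of the limma fit. *Synpr* lies at 2.70 in tissue and 1.30 in culture, and *Syn3* at -1.21 and -3.12.

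Whether the signed difference of culture minus tissue was the same in both regions was tested as an interaction, hippocampus minus cortex. It was above 0 for 21 of the 40 genes (14.9% of all genes) and below 0 for 4 (17.1% of all genes) at an adjusted p under 0.05. The excess in hippocampus was 1.57 ± 0.24 for *Cplx2* (adjusted p = 4.0e-06), 1.42 ± 0.15 for *Sv2b* (adjusted p = 2.1e-09), 0.91 ± 0.12 for *Cplx1* and 0.90 ± 0.11 for *Snap25*. All 4 endocytosis genes and 7 of the 9 SNARE genes and their partners were among the 21. Of the 4 below 0, *Synpr* at -1.40 ± 0.29, *Rab3b* at -0.64 ± 0.18 and *Syt11* at -0.28 ± 0.08 rose less in hippocampus than in cortex. *Syn3*, at -1.91 ± 0.31, was lowered further in hippocampus. Called or not, the signed difference was the higher one in hippocampus for 33 of the 40 genes, or 82.5%, against 50.5% of all genes.

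**Figure D4:**
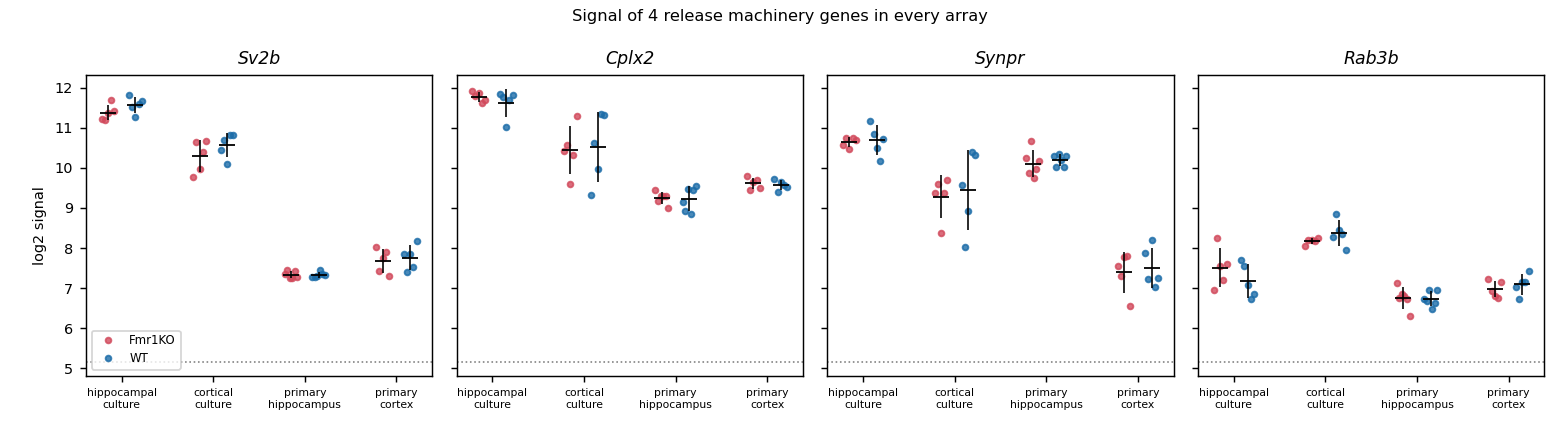
Log2 signal (vertical axis) of *Sv2b*, *Cplx2*, *Synpr* and *Rab3b* in every array of the 4 systems, with points, mean, SD and background drawn as for the synapsins. *Sv2b* and *Cplx2* are higher in hippocampal than in cortical culture, *Synpr* is low in primary cortex, and *Rab3b* is highest in cortical culture.

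The third comparison, *Fmr1*KO against WT within each system, is the one the study was built on. FMRP is an RNA-binding protein best known for holding back translation, and the arrays read the amount of RNA and not of protein. By limma, no vesicle gene of the 40 passed the adjusted threshold of 0.05 in any system, where 1 to 3 of all 18193 genes did. *Fmr1* itself was among them in every system. In both cultures and in primary cortex it was the only gene that passed. At an unadjusted p under 0.05, 3 of the 160 comparisons passed. In hippocampal culture 1 gene was higher (6.87% of all genes) and none lower (2.67%), and at the adjusted threshold none was higher (0.0% of all genes) or lower (0.0055%). With 1 array or litter left out, the unadjusted counts there ran from 0 to 4 higher (4 without KO mouse ID 2620 or WT mouse ID 2643, 0 without WT mouse ID 2644) and from 0 to 2 lower (2 without WT mouse ID 2644). In cortical culture none was higher (6.17%) and 2 were lower (4.05%), with 0.0% and 0.0055% of all genes at the adjusted threshold. In primary hippocampus none was higher (0.594%) or lower (0.945%), against 0.0055% and 0.011% adjusted. In primary cortex none was higher (1.23%) or lower (0.434%), against 0.0% and 0.0055% adjusted.

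The mean over the 40 probe sets of an array overlapped between genotypes in each system. It ran from 9.80 to 9.97 in KO and 9.50 to 10.06 in WT hippocampal culture, and from 9.49 to 9.88 in KO and 9.51 to 9.94 in WT cortical culture. In primary hippocampus it ran from 8.14 to 8.49 in KO and 8.12 to 8.50 in WT, and in primary cortex from 8.33 to 8.59 in KO and 8.28 to 8.58 in WT.

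*Sh3gl2* in hippocampal culture was at 11.08, 11.12, 10.96, 11.01 and 11.20 in the KO arrays and at 10.94, 10.98, 10.56, 10.85 and 10.83 in the WT arrays. The groups overlapped narrowly, with a difference of 0.24 ± 0.10 (limma adjusted p = 0.47). *Syt5* in cortical culture was at 6.96, 8.06, 6.91, 7.36 and 7.63 in KO and at 7.90, 8.45, 7.49, 7.93 and 7.42 in WT. These overlapped widely, with a difference of -0.45 ± 0.19 (limma adjusted p = 0.46). *Sv2c* in cortical culture was at 3.41, 3.24, 3.24, 3.23 and 3.32 in KO and at 3.62, 3.54, 3.64, 3.64 and 3.48 in WT. No KO array reached a WT array (limma adjusted p = 0.31), but every value was below background. In hippocampal culture *Syn3* gave the largest KO difference of the 40, 0.59 ± 0.31, which passed neither threshold (limma adjusted p = 0.60). Its KO arrays were at 4.77, 6.51, 6.13, 6.75 and 4.55 and its WT arrays at 5.96, 5.58, 5.13, 4.20 and 4.87.

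The 95% confidence intervals of the KO minus WT differences lay within 2-fold for all 40 genes in both tissues and in cortical culture, and for 39 in hippocampal culture, where that of *Syn3* reached 1.23. They lay within 1.5-fold for 31 genes in hippocampal and 29 in cortical culture, and for 37 in primary hippocampus and 36 in primary cortex. For the remaining genes a 1.5-fold difference lies inside the interval. The intervals rest on a spread shared by all 4 systems, so they do not show how precise each system is by itself. In cortical culture 31 of the 40 differences were negative, with a median of -0.11 against 0.01 over all genes, and in hippocampal culture 15 were negative, with a median of 0.05 against 0.01. In primary hippocampus 9 were negative and 31 positive (median 0.03), and in primary cortex 28 were negative and 12 positive (median -0.04). The genes of a system share their arrays, so these counts carry no test.

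**Figure D5:**
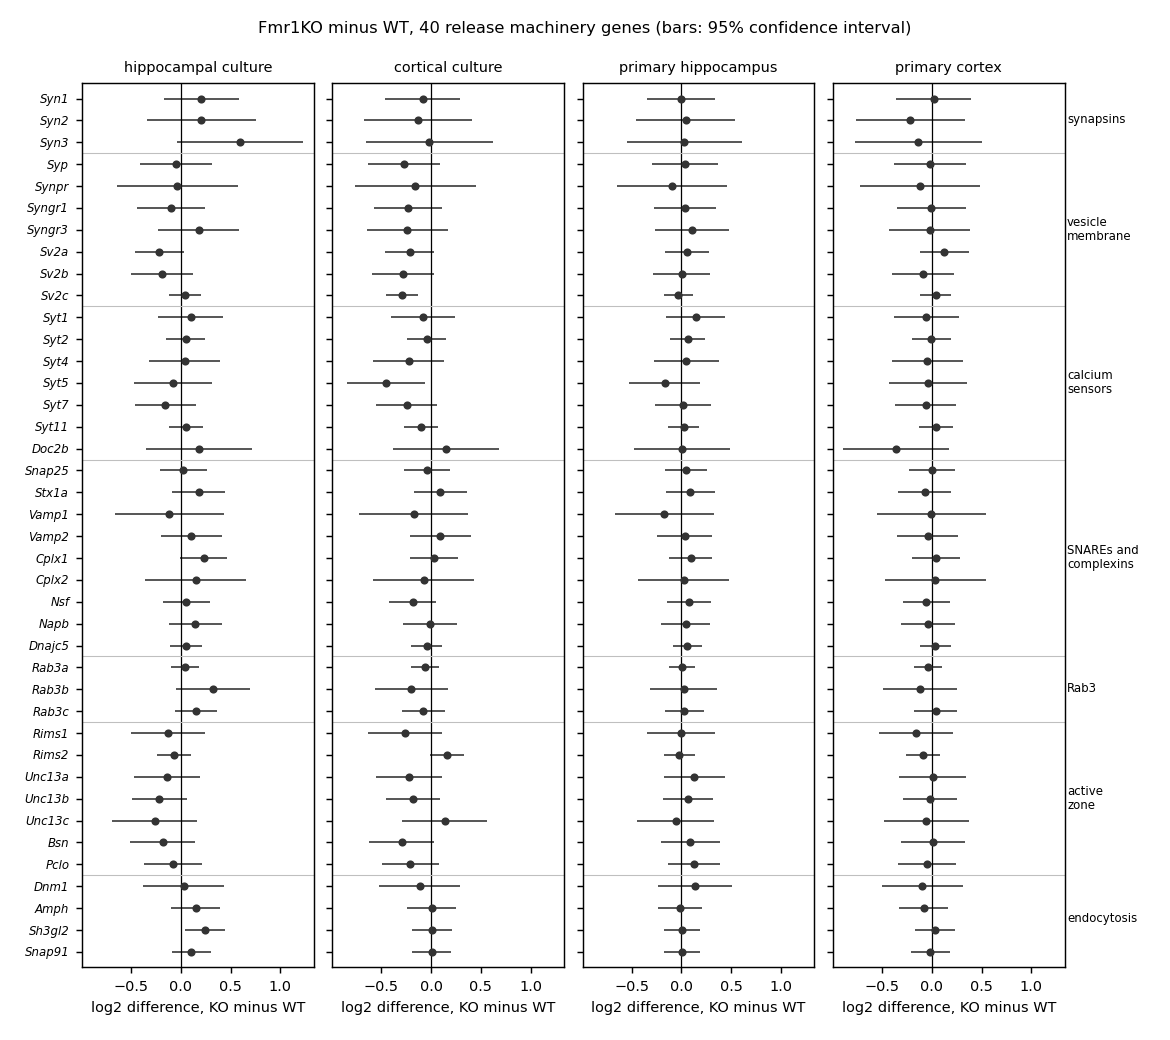
Log2 difference of *Fmr1*KO minus WT (horizontal axis) for each of the 40 genes in each of the 4 systems, 1 panel per system, with bars for the 95% confidence interval. The intervals span 0 for all but *Sh3gl2* in hippocampal culture and *Sv2c* and *Syt5* in cortical culture.

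The choice of probe set and of arrays moved the cortical culture count. Without mouse ID 4236 in all systems 7 genes were lower in KO cortical culture, and without single other arrays or litters 1 to 6 were. With the probe set of smallest p per gene, 13 of the 40 genes were lower in KO cortical culture at an unadjusted p under 0.05, with differences of -0.51 to -0.13, where 8.54% of all genes were lower, and none was higher (8.56%). They were *Dnajc5*, *Dnm1*, *Napb*, *Nsf*, *Rab3a*, *Rab3c*, *Rims2*, *Sh3gl2*, *Sv2b*, *Sv2c*, *Syt2*, *Syt5* and *Syt7*, and none passed the adjusted threshold. The 40 genes had 107 probe sets, against 34945 for all 18193 genes. The smallest p was thus taken over more probe sets per vesicle gene, and the shares of all genes under this choice are not a like measure. *Rab3c* shows the spread within a gene, with -0.45 and -0.40 in a pair of its dimmer probe sets, both past the unadjusted threshold, and -0.08 in the brightest, which was not. For *Rims2*, *Sv2c*, *Syt2* and *Syt7* the probe set of smallest p was below background. In hippocampal culture the same choice gave 3 higher (*Dnajc5*, *Sh3gl2* and *Syn2*, against 9.66% of all genes) and 1 lower (*Nsf*, against 4.61%).

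No interaction of genotype with culture passed the adjusted threshold among the 40 genes in limma, in hippocampus (0.0% of all genes higher or lower) or in cortex (0.0% of all genes higher or lower). At an unadjusted p under 0.05 there was none in hippocampus (3.24% of all genes higher and 1.34% lower) and 1 in each direction in cortex (1.58% of all genes higher and 3.07% lower): *Sv2c*, below background, at -0.33 ± 0.11 and *Rims2* at 0.24 ± 0.12. Among the 115 other vesicle cycle genes, 10 were higher and 2 lower in KO hippocampal culture at an unadjusted p under 0.05 (6.87% and 2.67% of all genes), 4 higher and 3 lower in cortical culture (6.17% and 4.05%), and 1 higher in each tissue (0.594% of all genes in primary hippocampus and 1.23% in primary cortex). None passed the adjusted threshold.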

How the data were processed

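Total RNA (100 ng per sample) had been amplified, labelled and hybridised to 42 Affymetrix mouse expression arrays. The deposited table holds log2 signal per probe set, made by the authors with RMA, which corrects background, normalises all arrays by quantiles and summarises probes, so that values are relative and small differences can be compressed. The number of arrays limits the precision. Probe sets were named from the platform annotation. Of 45037 non-control probe sets, 34945 had 1 gene, 932 several and 9160 none, and 34741 were found in RefSeq by Entrez ID. A gene was read from its probe set with the highest mean over all arrays. Probe sets ending in _s_at or _x_at can match several transcripts.

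The log2 values were fitted with limma 3.58.1 in R 4.3.3, with 8 group means (4 systems, 2 genotypes), moderated variances (34 residual degrees of freedom) and Benjamini-Hochberg adjustment over all probe sets. Culture against tissue was called at an adjusted p under 0.05 and at least 2-fold, region at the adjusted p alone, and genotype at both an adjusted and an unadjusted p under 0.05. The fit was tested on simulated data with independent normal noise and the same spread of a probe set in all systems. Such data cannot show how the fit behaves where systems differ in spread or litters correlate. Text genes were those with the largest called differences per comparison, plus paralogs that departed from their family. The 40 genes, the other lists and this rule were chosen with earlier results of these data known. The other settings are described under how the results depend on the processing. The labels describe every sample as pooled littermates, and samples with the same mouse ID were taken to be from 1 litter, which the labels do not state. Their deviations from the group means correlated with a median of 0.359 between the tissues (all 10 pairs over 0.1), 0.276 between the cultures, 0.042 between hippocampal culture and tissue and 0.032 between cortical culture and tissue. By the study's methods, pairs of WT and KO replicates were handled on 1 day. The labels name neither pair nor day, so genotypes were compared unpaired and the effect of the day was not tested. The p values measure the spread between these pooled samples, with 1 spread per probe set shared by all 8 groups. They do not use the spread of each system alone. Fitted array weights, lower for arrays with more spread, ran from 0.92 to 1.66 in primary cortex and 0.79 to 1.58 in primary hippocampus. In cortical culture they ran from 0.34 to 1.18, and in hippocampal culture from 0.39 to 1.79.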

Additional observations from a re-analysis of the deposited data

Results flagged for a closer look

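For 25 of the 40 genes the signed difference of culture minus tissue differed between hippocampus and cortex by the limma interaction. The rise was smaller in hippocampus for *Synpr* (-1.40), *Rab3b* (-0.64) and *Syt11* (-0.28), and *Syn3* (-1.91) was lowered further in hippocampus. The excess in hippocampus was 0.33 for *Rab3a*, 0.39 for *Amph*, 0.41 for *Vamp2*, 0.48 for *Syp*, 0.49 for *Napb* and 0.51 for *Syngr3*. It was 0.55 for *Syngr1*, 0.56 for *Snap91*, 0.58 for *Syt4*, 0.68 for *Syn1*, 0.69 for *Bsn*, 0.71 for *Rims1* and 0.79 for *Sh3gl2*. It was 0.86 for *Nsf*, 0.87 for *Doc2b* and *Dnm1*, 0.89 for *Vamp1*, 0.90 for *Snap25*, 0.91 for *Cplx1*, 1.42 for *Sv2b* and 1.57 for *Cplx2*. *Vamp1* was below background in both tissues.

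In 14 of 320 groups of arrays 1 array stood apart from the rest of its group by Dixon's criterion, where chance gives about 1 in 20, or 16. Among *Fmr1*KO cortical cultures, mouse ID 4236 stood apart in *Syt2* (4.66), *Rims1* (10.5) and *Bsn* (9.52), and mouse ID 2221 in *Synpr* (8.37). Among WT cortical cultures the litter labelled NT stood apart in *Unc13a* (9.09). Among hippocampal cultures, WT mouse ID 2644 stood apart in *Stx1a* (11.02) and *Cplx2* (11.01), KO mouse ID 4236 in *Dnajc5* (11.2) and KO mouse ID 2038 in *Unc13b* (8.72). In primary hippocampus, KO mouse ID 4236 stood apart in *Rab3c* (10.2) and KO mouse ID 2037 in *Rims2* (8.30). In primary cortex, WT mouse ID 3569 stood apart in *Syt2* (4.21) and *Syt7* (10.004), and KO mouse ID 2037 in *Amph* (10.1).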

How the results depend on the processing

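The calls for culture against tissue and between regions, and those for genotype, were refitted with another probe set per gene, the groups compared alone, a trended robust prior, array weights, median centring, quantile normalisation, probe sets above background alone, a replicate block for the litter, and each array or litter left out. Of 146 single-gene calls, 126 passed under every setting that tested the gene. *Sv2c* and *Syt2*, below background, were not tested with probe sets above background alone, so their calls were not counted as lost there. The other 20 calls were lost under at least 1 setting, most often the interactions of *Syngr3* (35 settings), *Syp* (26) and *Vamp2* (17) and the tissue difference of *Syn1* (17). None of the 20 changed sign. With litter as a replicate block the counts for culture against tissue were 27 higher and 1 lower in hippocampus and 26 higher and 0 lower in cortex, those between regions 4 and 17 in tissue and 17 and 4 in culture, the interaction 24, and the genotype counts were those of the fit without the block.

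Without a fold threshold 3 genes were lower in hippocampal and 1 in cortical culture. At 1.5-fold, 2 genes were higher and 4 lower in primary hippocampus than in primary cortex, 8 were higher in hippocampal than in cortical culture, and 15 interactions passed. For genotype in hippocampal culture, the count of higher genes was 3 with the probe set of smallest p, 0 with the mean of the probe sets, 2 with median centring, 0 with adjusted p and 0 at an unadjusted p under 0.01, and the count of lower genes was 1 with the probe set of smallest p. In cortical culture 1 gene was higher with median centring, and the count of lower genes was 13 with the probe set of smallest p, 4 with the mean of the probe sets, 1 with the groups compared alone, 1 with probe sets above background alone, 0 with adjusted p and 1 at 0.01. In primary hippocampus 1 was lower with the groups compared alone, and in primary cortex 1 was higher (*Syt7*) with the probe set of smallest p. Genotype interactions with culture numbered 2 at an unadjusted p under 0.05 and 1 at 0.01. The cause of these changes was not tested.

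With each array or litter left out, hippocampal culture held 27 higher and 1 lower and cortical culture 26 to 27 higher and 0 lower. Regions gave 4 to 5 higher and 16 to 21 lower in tissue, 15 to 17 higher and 4 to 7 lower in culture, and 22 to 28 interactions. Genotype gave 0 to 4 higher and 0 to 2 lower in hippocampal culture, 0 to 1 higher and 1 to 7 lower in cortical culture, 0 in either tissue and 0 interactions. In hippocampal culture 4 were higher without WT mouse ID 2643 or KO mouse ID 2620 and 0 without WT mouse ID 2644, where 2 were lower. In cortical culture 6 were lower without the array of KO mouse ID 4236 and 7 without that litter. Signals near background limit *Sv2c*, *Syt2*, *Vamp1* and *Unc13c*, as well as *Syn3* in hippocampal culture and *Doc2b* in primary hippocampus.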
